A study of Mus musculus with 12 samples.

Results

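The 10 genes described here encode enzymes that make, phosphorylate or divert nicotinamide adenine dinucleotide (NAD), and 3 sirtuins that consume it. They were chosen by name, with earlier results of these libraries known, so their values and calls describe them and are no independent test. All 10 were found among the 22607 genes of the table, and all 10 passed the filter on low counts that kept 16007 genes. The libraries are from tibialis anterior, a shin muscle of mostly fast fibres, of C57BL/6 male mice aged 13 weeks, with 3 libraries in each of 4 groups. The mice of the ADF Crtc2 and ADF GFP groups were fasted on alternate days (ADF) for 3 rounds, and those of the fed Crtc2 and fed GFP groups ate ad libitum. Every muscle was transduced, with a Crtc2 expression vector (Crtc2 protein switches on CREB target genes), or with a GFP vector that the labels call empty. The labels name neither the promoter of the vectors nor the cells they reached. Nothing in them states that replicate libraries are from different mice, or that the Crtc2 and GFP muscles are from 1 mouse, so p-values here cover only library-to-library spread, which may be technical.

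NAD carries electrons in glycolysis and mitochondrial respiration and is used up by sirtuins, which remove acyl groups from proteins. Muscle rebuilds most of it by salvage. Nampt turns nicotinamide into nicotinamide mononucleotide and is the rate-limiting enzyme of that route, while the kinases Nmrk1 and Nmrk2 make the same mononucleotide from nicotinamide riboside, Nmrk2 being the form typical of muscle. The adenylyl transferases Nmnat1, in the nucleus, and Nmnat3, ascribed to mitochondria, complete NAD. Nadk phosphorylates NAD to NADP in the cytosol, and Nnmt methylates nicotinamide and so takes it out of salvage. Sirt1 is a nuclear deacetylase, Sirt3 the main mitochondrial deacetylase, and Sirt5 a mitochondrial enzyme that removes succinyl and malonyl groups.

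The promoters of the 3 genes that passed the test in any comparison are printed to show the sequence beside their annotated starts, since Crtc2 acts through CREB at cAMP response elements. Each is the 250 bases before a RefSeq gene start on GRCm38.p6, 5' to 3' on the gene's strand, with any match to TGACG, the short form of that element, in capitals. Nampt lies at chr12:32820085-32820334 on the plus strand, Nmrk2 at chr10:81202038-81202287 on the minus strand, and Nmnat1 at chr4:149485211-149485460 on the minus strand, for the first of its RefSeq starts. The Nampt window lies inside the gene as GENCODE draws it, whose start is farther upstream, so the annotations differ on where the gene begins.
Nampt: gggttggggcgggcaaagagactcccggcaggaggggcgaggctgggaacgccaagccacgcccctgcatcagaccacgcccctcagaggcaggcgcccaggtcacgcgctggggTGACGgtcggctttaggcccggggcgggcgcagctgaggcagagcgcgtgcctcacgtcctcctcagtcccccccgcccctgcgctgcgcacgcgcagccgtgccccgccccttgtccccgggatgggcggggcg
Nmrk2: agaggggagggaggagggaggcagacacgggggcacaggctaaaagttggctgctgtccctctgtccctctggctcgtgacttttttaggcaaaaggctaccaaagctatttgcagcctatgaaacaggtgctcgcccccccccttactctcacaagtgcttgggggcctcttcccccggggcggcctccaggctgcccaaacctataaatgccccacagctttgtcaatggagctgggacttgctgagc
Nmnat1: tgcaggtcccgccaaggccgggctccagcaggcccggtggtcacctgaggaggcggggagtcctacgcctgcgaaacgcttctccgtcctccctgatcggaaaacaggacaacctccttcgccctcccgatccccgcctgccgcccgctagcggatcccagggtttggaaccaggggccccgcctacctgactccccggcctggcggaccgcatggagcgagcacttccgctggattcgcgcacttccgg
The Nampt window held 1 short element and the other two held none. Searched on both strands, the full element TGACGTCA was in 1.56% of 32536 RefSeq promoters of this length, the short element TGACG in 17.9% (every full element also holds it), and the E-box CACGTG in 6.04%. RefSeq promoters were found for 9 of the 10 genes, and none of these windows held the full element. A short element was also found before Sirt1, which overlapped 1 of the 2 E-boxes there, and before 1 start of Sirt3, and an E-box before 1 start of Nadk. These are matches of letters in a window and say nothing of binding.

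The libraries held 24232450 to 34610417 counts each, with 14313 to 17226 genes detected. In each library 68.9 to 74.7% of counts between 2 and 21 were even numbers, so low counts may stand for fewer fragments than printed. Crtc2 itself had 42.8, 40.6 and 31.4 counts scaled to library size (CPM) in ADF Crtc2 muscle and 19.7, 16.1 and 23.6 CPM in ADF GFP muscle. It had 64.9, 58.2 and 77.9 CPM in fed Crtc2 muscle and 29.2, 17.3 and 24 CPM in fed GFP muscle. Its groups did not overlap under either diet, as the vector labels would have it, but it did not pass the test adjusted over all genes (edgeR's quasi-likelihood test, Benjamini-Hochberg, adjusted p = 0.127 under ADF and 0.134 in fed muscle). Crtc2 was 1.93-fold higher with its vector under ADF and 2.85-fold higher in fed muscle (interaction -0.56 ± 0.39, edgeR adjusted p = 0.764). Within Crtc2 muscle it was lower under ADF than when fed, without overlap (log2 change -0.81 ± 0.27, edgeR adjusted p = 0.0623). The Crtc2 level may thus differ between the diets compared below. Fast fibre markers such as creatine kinase and fast myosins summed to 118000 to 208000 CPM in every library, so the defining markers of the labelled muscle were present.

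Compared per length, as TPM (counts per exon length, scaled to the same total in every library), the highest level among the 10 genes was that of Nmrk2, with a median of 259 TPM over the 12 libraries and a range of 99.9 to 643. Nampt followed with 61.8 TPM (25.9 to 98.6), then Nmnat1 with 29.9 (14.6 to 43.6), Nadk with 22.6 (12.6 to 37.3) and Sirt3 with 16.7 (10.6 to 20). Nmnat3 had a median of 10 TPM (5.31 to 26), Sirt5 6.67 (2.42 to 12.1), Nnmt 5.63 (0 to 9.69), Sirt1 4.34 (0.449 to 5.32) and Nmrk1 3.83 (1.35 to 17). The Nmrk2 range lay above that of every other listed gene. Among the rest, each gene's range over the libraries overlapped that of its neighbours in this order, so only the wider steps of the order exceed the spread between libraries.

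**Figure D1:**
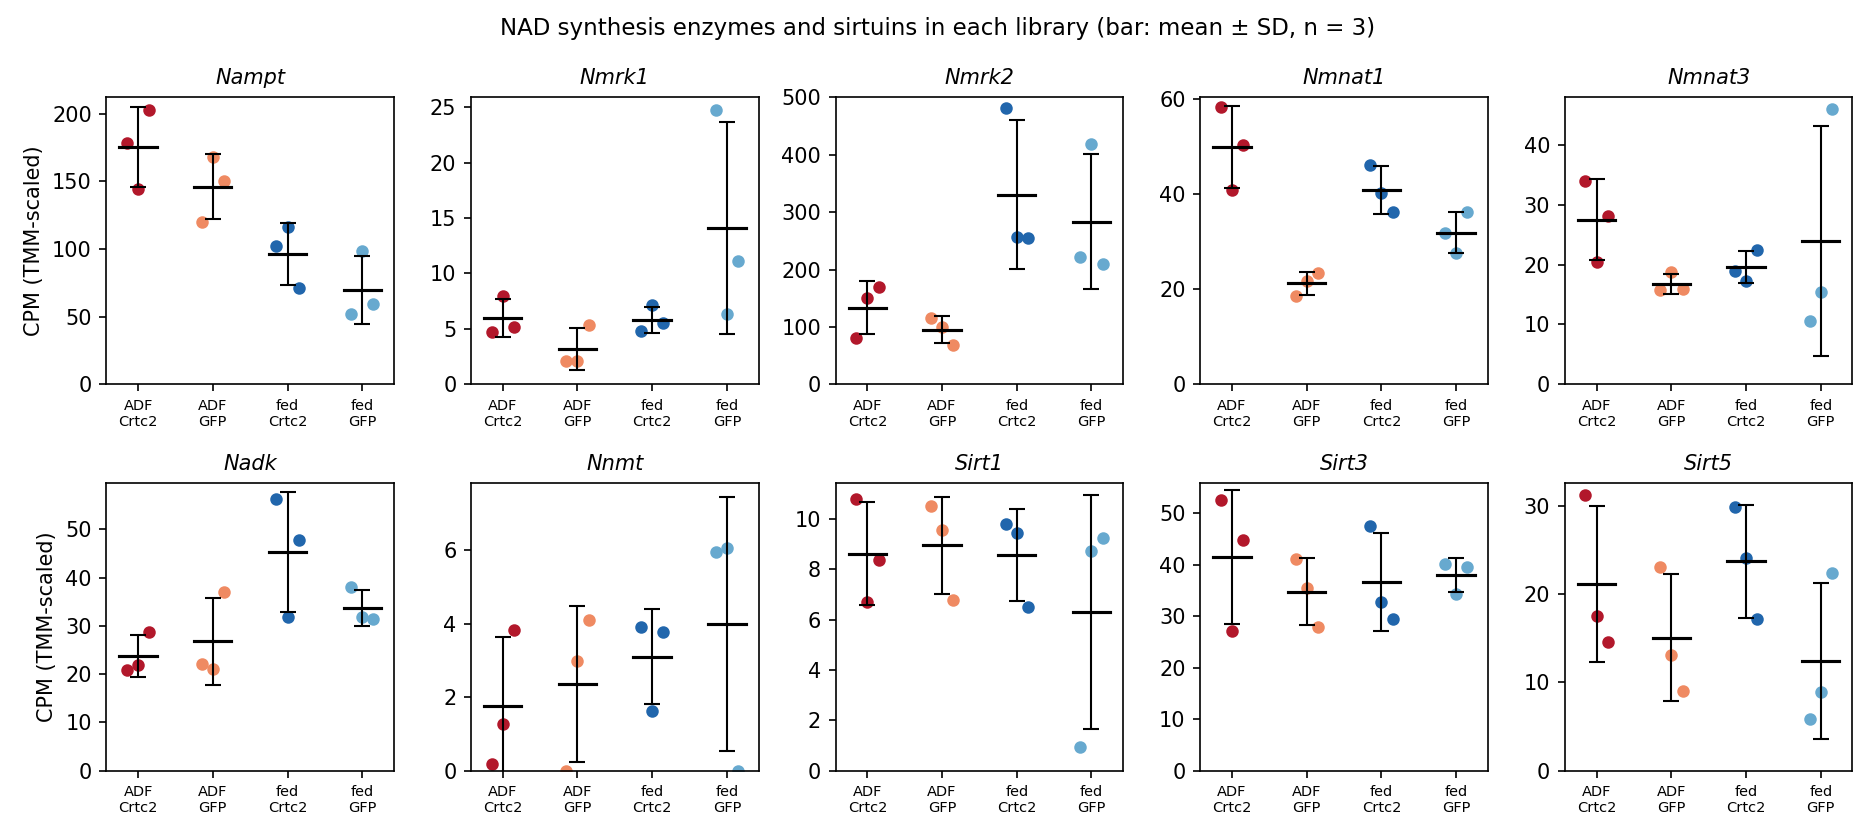
Level of each of the 10 genes in every library, in CPM on a linear axis, with 1 point per library. The 4 groups stand side by side from ADF Crtc2 to fed GFP. The ADF points of Nampt lie above the fed points and those of Nmrk2 below them, and the Nmnat1 points of ADF Crtc2 muscle (40.9 to 58.2 CPM) lie above those of ADF GFP muscle (18.6 to 23.4 CPM).

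Alternate day fasting was set against ad libitum feeding to ask how the diet altered the muscle's transcripts, separately in muscle with each vector. The salvage genes moved apart: Nampt was higher and Nmrk2 lower under ADF with either vector, and no other of the 10 genes passed the test. In GFP muscle 1 of the 10 was higher and 1 lower, where 7.12% of all tested genes passed, 4.06% higher and 3.06% lower. In Crtc2 muscle Nampt and Nmrk2 passed again, 1 higher and 1 lower, where 11% of all tested genes passed, 6.3% higher and 4.68% lower. Nothing is read from these shares, because the 10 genes were chosen with results known. The groups did not overlap for 4 of the 10 genes in GFP muscle, Nampt higher and Nmrk1, Nmrk2 and Nmnat1 lower, where this held for 25.6% of all tested genes (14.3% higher, 11.3% lower). In Crtc2 muscle they did not overlap for 3 of the 10, Nampt higher and Nmrk2 and Nadk lower, where this held for 30.5% (14.8% higher, 15.7% lower). The median log2 change over the 10 genes was -0.43 in GFP muscle and 0.02 in Crtc2 muscle, beside medians over all tested genes of -0.01 and -0.13.

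Nampt, on chromosome 12 at 32819545-32853349 (GRCm38, plus strand), had 120, 168 and 150 CPM in ADF GFP muscle and 51.6, 98.4 and 59.5 CPM in fed GFP muscle. It was 2.1-fold higher under ADF, a log2 change of 1.07 ± 0.24 (SE, n = 3 each) that passed edgeR's quasi-likelihood test (adjusted p = 0.00884). Every ADF library lay above every fed library. In Crtc2 muscle Nampt had 178, 144 and 203 CPM under ADF and 102, 116 and 71.1 CPM when fed. It was 1.81-fold higher, a log2 change of 0.86 ± 0.24 (edgeR's quasi-likelihood test, adjusted p = 0.0245), again without overlap in CPM. By TPM these groups overlapped, at 67.1 to 94.8 under ADF and 33.1 to 69 when fed. The call in GFP muscle was lost without fed GFP replicate 1 (adjusted p = 0.0518), over a range of 0.00022 to 0.0518 in the alternatives run. In Crtc2 muscle it was lost without ADF Crtc2 replicates 1 (0.0713) and 3 (0.112) or fed Crtc2 replicates 1 (0.0553) and 3 (0.119), and, with scaling by library totals, at a log2 change of 0.55 (adjusted p = 0.202), over a range of 0.00401 to 0.202.

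Nmrk2, on chromosome 10 at 81198170-81202051 (minus strand), moved the other way. It had 116, 99.5 and 69.3 CPM in ADF GFP muscle and 222, 419 and 210 CPM in fed GFP muscle. It was 2.99-fold lower under ADF, a log2 change of -1.58 ± 0.35 (edgeR's quasi-likelihood test, adjusted p = 0.012), and the groups did not overlap. In Crtc2 muscle it had 81.5, 150 and 169 CPM under ADF and 481, 256 and 255 CPM when fed. It was 2.48-fold lower, a log2 change of -1.31 ± 0.34 (edgeR's quasi-likelihood test, adjusted p = 0.0236). The highest ADF library, at 169 CPM, was below the lowest fed library of the same vector, at 255 CPM. The call in GFP muscle was lost without ADF GFP replicates 2 (0.0532) or 3 (0.0587), over a range of 3.39e-10 to 0.0587, and that in Crtc2 muscle without ADF Crtc2 replicates 1 (0.0779) or 2 (0.0584) or fed Crtc2 replicate 1 (0.0886), over a range of 2.48e-07 to 0.0886. Exons of Nmrk2 share 270 bases with Atcayos on the opposite strand, and the strand setting of the counting is not given in the sources used here, so reads there cannot be assigned with certainty. The log2 changes of Atcayos had the other sign, 0.37 ± 0.23 in GFP muscle (edgeR adjusted p = 0.412) and 0.77 ± 0.23 in Crtc2 muscle (0.0324).

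Markers of other cells and of fibre types also differed by diet beside these changes, some only as single genes. Macrophage markers summed to 237 to 415 CPM in ADF GFP muscle and 161 to 230 CPM in fed GFP muscle, with 0 of 6 called. Fibroblast markers summed to 1650 to 3470 CPM in ADF GFP muscle and 766 to 2040 CPM in fed GFP muscle. Slow fibre markers summed to 184 to 236 CPM in ADF GFP muscle and 185 to 484 CPM in fed GFP muscle. Both sums overlapped between diets, and 1 of 6 was called in each list, Dcn higher and Tnnt1 lower. Of the 9 fast fibre markers, Acta1 was called higher and Mylpf lower under ADF with either vector. In ADF Crtc2 muscle slow fibre markers summed to 107 to 166 CPM (1 of 6 lower), satellite and regenerating cell markers to 96.2 to 154 CPM (2 of 6 lower) and endothelial markers to 194 to 247 CPM (2 of 5 lower). The same sums were 223 to 425 CPM, 198 to 389 CPM and 300 to 423 CPM in fed Crtc2 muscle. T cell markers summed to 0.118 to 1.64 CPM in ADF Crtc2 muscle, with Cd3g at 0 counts there, and 3.24 to 48.2 CPM in fed Crtc2 muscle (1 of 5 lower). In bulk muscle, fewer cells of a type and less RNA per cell cannot be told apart. The part of these cells in the Nampt and Nmrk2 results was not tested.

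The Nampt to Nmrk2 ratio joins these opposite changes into 1 value per library. In TPM it was 0.354 to 0.801 in ADF Crtc2 muscle and 0.381 to 0.796 in ADF GFP muscle, against 0.078 to 0.166 in fed Crtc2 muscle and 0.0852 to 0.104 in fed GFP muscle. All 6 ADF libraries lay above all 6 fed libraries. The ratio was built from these changes and is given with no test.

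**Figure D2:**
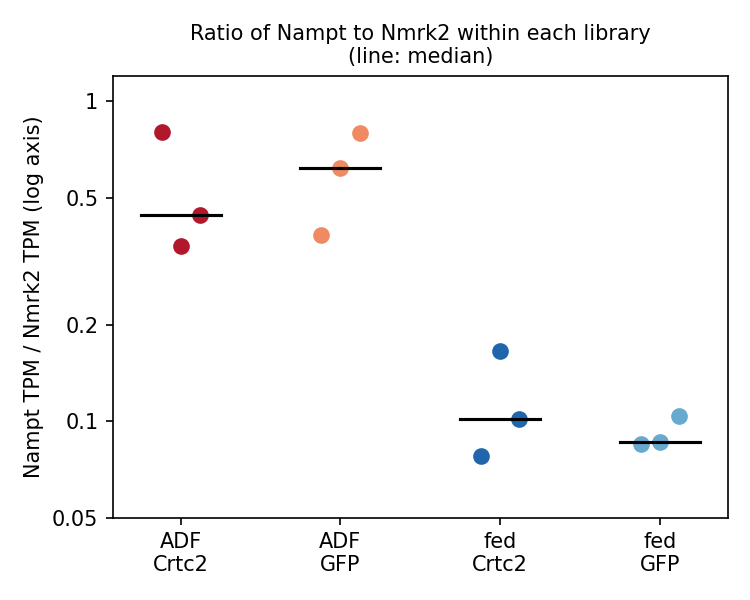
Ratio of Nampt to Nmrk2 level (TPM over TPM, log axis) in each of the 12 libraries, by group. The 6 ADF libraries lie at 0.354 or above, and the 6 fed libraries at 0.166 or below.

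Nmrk1, the other riboside kinase, was low and variable. It had 2.1, 2.06 and 5.35 CPM in ADF GFP muscle and 24.8, 6.36 and 11.1 CPM in fed GFP muscle, without overlap, and the log2 change of -2.15 ± 0.7 missed the threshold (edgeR's quasi-likelihood test, adjusted p = 0.0686). It passed by DESeq2 (adjusted p = 0.00523) and without fed GFP replicate 2 (0.0386), over a range of 0.00523 to 0.378. In Crtc2 muscle Nmrk1 lay between 4.75 and 7.94 CPM under ADF and between 4.81 and 7.14 CPM when fed, a log2 change of 0.03 ± 0.67. Fed GFP replicate 1, at 24.8 CPM, was the highest library for this gene.

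Of the enzymes after salvage, Nadk came nearest to the threshold, in Crtc2 muscle. It had 20.8, 21.8 and 28.7 CPM under ADF and 56.3, 31.9 and 47.7 CPM when fed, without overlap. The log2 change was -0.93 ± 0.3 (edgeR's quasi-likelihood test, adjusted p = 0.0534), and it passed in 7 of the 18 alternatives run, DESeq2 (0.0167) among them, over a range of 0.0166 to 0.203. In GFP muscle Nadk averaged 26.8 ± 8.95 CPM under ADF and 33.8 ± 3.73 CPM when fed (SD, n = 3 each), with overlap. The adenylyl transferases did not pass in either vector. Nmnat1 averaged 21.2 ± 2.39 CPM in ADF GFP muscle and 31.9 ± 4.3 CPM in fed GFP muscle, without overlap (log2 change -0.59 ± 0.26, adjusted p = 0.204 by edgeR). With Crtc2 it averaged 49.8 ± 8.66 CPM under ADF and 40.8 ± 4.96 CPM when fed, with overlap. Nmnat3 averaged 16.8 ± 1.72 CPM under ADF and 23.9 ± 19.2 CPM when fed in GFP muscle, where 1 fed library, replicate 3, stood at 46 CPM. In Crtc2 muscle it averaged 27.5 ± 6.74 CPM under ADF and 19.6 ± 2.62 CPM when fed, with overlap.

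The 3 sirtuins among the 10 genes did not separate by diet. Sirt3 averaged 34.8 ± 6.56 CPM in ADF GFP muscle and 37.9 ± 3.27 CPM in fed GFP muscle, and 41.4 ± 13.1 CPM in ADF Crtc2 muscle and 36.5 ± 9.54 CPM in fed Crtc2 muscle. Its exons share 418 bases with Ric8a and 342 with Psmd13 on the opposite strand. Sirt5 ranged from 8.98 to 23 CPM in ADF GFP muscle and from 5.83 to 22.4 CPM in fed GFP muscle, and from 14.6 to 31.2 CPM in ADF Crtc2 muscle and 17.1 to 29.8 CPM in fed Crtc2 muscle. Sirt1, the best known of the family for fasting responses, had 10.5, 9.56 and 6.79 CPM in ADF GFP muscle and 0.945, 8.71 and 9.23 CPM in fed GFP muscle. The low value rests on 24 counts in fed GFP replicate 1, without which its log2 change of 0.5 ± 0.67 was 0 (adjusted p = 0.785 with all libraries, edgeR). In Crtc2 muscle Sirt1 averaged 8.64 ± 2.08 CPM under ADF and 8.57 ± 1.82 CPM when fed. Nnmt was at or below 6.05 CPM in every library and at 0 counts in ADF GFP replicate 1 and fed GFP replicate 3. There 3 counts, the limit a count of 0 allows if each count is 1 fragment, would be 0.129 and 0.101 CPM. Nnmt ranged from 0.173 to 3.84 CPM in ADF Crtc2 muscle and from 1.61 to 3.91 CPM in fed Crtc2 muscle. Other libraries of the GFP groups held 100 to 178 counts of Nnmt, so the spread between libraries was wide, and no comparison passed.

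**Figure D3:**
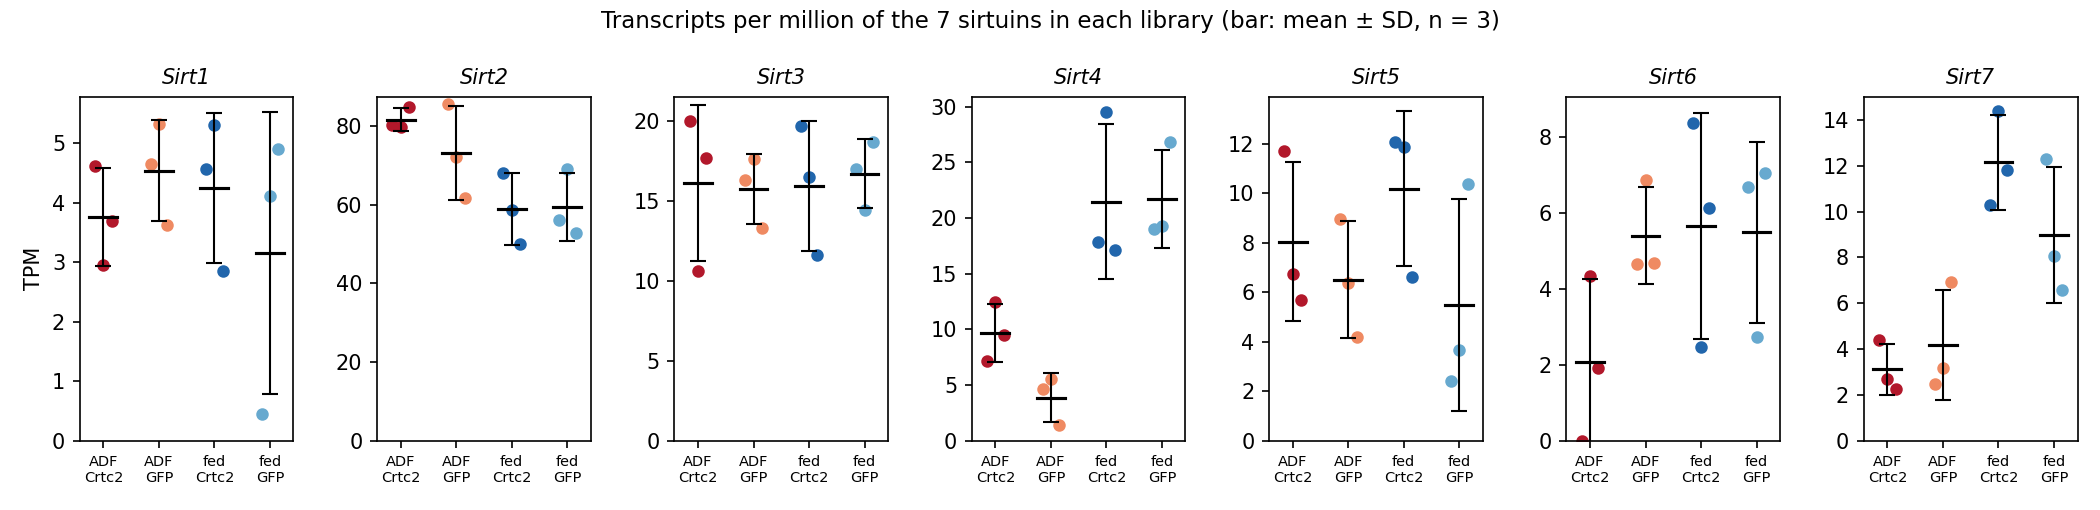
Level of the sirtuins Sirt1 to Sirt7 in each library in TPM (linear axis), by group, from ADF Crtc2 to fed GFP. Sirt1 reads 0.449 TPM in 1 fed GFP library and at most 5.32 TPM elsewhere. The Sirt3, Sirt5 and Sirt1 points of the 4 groups overlap. Sirt4 and Sirt7, which were called lower under ADF with 1 of the vectors each, are described further below.

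Crtc2 vector was set against GFP vector to ask what the coactivator adds, under ADF and in fed muscle. Under ADF 1 of the 10 genes, Nmnat1, passed and was higher, where 0.725% of all tested genes passed, 0.075% higher and 0.65% lower. In 2 of the 10, Nmnat1 and Nmnat3, the Crtc2 libraries lay above the GFP libraries in CPM without overlap. Over all tested genes 21.4% did not overlap (9.6% higher). By TPM Nmnat3 overlapped, at 9.62 to 15.4 in ADF Crtc2 muscle and 7.45 to 11.1 in ADF GFP muscle. The median log2 change over the 10 genes was 0.38, beside -0.01 over all tested genes. In fed muscle the groups did not overlap in CPM for 1 of the 10, Nmnat1, which was higher. Over all tested genes 8.53% did not overlap there (4.7% higher). By TPM fed Nmnat1 overlapped, at 28.1 to 39.7 with Crtc2 and 22.9 to 33.8 with GFP. None of the 10 passed there by edgeR, 0 did so at an unadjusted p under 0.05 and 0 by DESeq2. There 0% of all tested genes passed by edgeR, with 871 genes at an unadjusted p under 0.05 and 81 by DESeq2.

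Nmnat1, the nuclear enzyme that completes NAD, lies on chromosome 4 at 149467572-149485202 (minus strand). It had 58.2, 40.9 and 50.3 CPM in ADF Crtc2 muscle and 18.6, 21.6 and 23.4 CPM in ADF GFP muscle. It was 2.35-fold higher with Crtc2, a log2 change of 1.23 ± 0.26 (SE, n = 3 each), which passed edgeR's quasi-likelihood test (adjusted p = 0.0258). The lowest Crtc2 library lay above the highest GFP library. In fed muscle it had 46.1, 40.1 and 36.2 CPM with Crtc2 and 31.8, 27.6 and 36.2 CPM with GFP, so that the lowest Crtc2 and the highest GFP library were equal to 3 digits. There the log2 change was 0.36 ± 0.26 and did not pass (adjusted p = 1). The response under ADF exceeded that in fed muscle by 0.88 ± 0.36 on the log2 scale, a difference that missed the threshold when tested itself (interaction term, adjusted p = 0.603). The call under ADF held in 12 of 18 alternatives, over a range of adjusted p of 2.32e-05 to 0.17. It was lost without ADF Crtc2 replicates 1 (0.17) or 3 (0.0969), without ADF GFP replicates 1 (0.103), 2 (0.093) or 3 (0.114), and with scaling by library totals (log2 change 1.01, adjusted p = 0.0949). The comparison with Crtc2 and the ADF comparison in GFP muscle share the ADF GFP libraries.

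Marker genes of other cells also differed between the Crtc2 and GFP groups, mainly under ADF. The 6 macrophage markers summed to 59.3 to 115 CPM in ADF Crtc2 muscle and 237 to 415 CPM in ADF GFP muscle, with 2 of 6 lower by the test. The 6 fibroblast markers summed to 794 to 1230 CPM in ADF Crtc2 muscle and 1650 to 3470 CPM in ADF GFP muscle, with 0 of 6 called. T cell markers summed to 0.118 to 1.64 CPM in ADF Crtc2 muscle, as above, and 15 to 41.4 CPM in ADF GFP muscle (1 of 5 lower). Slow fibre markers summed to 107 to 166 CPM in ADF Crtc2 muscle and 184 to 236 CPM in ADF GFP muscle (2 of 6 lower), and satellite and regenerating cell markers to 96.2 to 154 CPM in ADF Crtc2 muscle and 214 to 289 CPM in ADF GFP muscle (1 of 6 lower). Endothelial markers summed to 194 to 247 CPM in ADF Crtc2 muscle and 252 to 385 CPM in ADF GFP muscle, with 0 of 5 called. In fed muscle macrophage markers summed to 82.1 to 154 CPM with Crtc2 and 161 to 230 CPM with GFP, also without overlap, with 0 of 6 called. The sums of the other lists named here overlapped in fed muscle. The part of these cells in the Nmnat1 result was not tested.

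The other genes stood as follows with Crtc2. Nmnat3 had 33.9, 20.5 and 28.1 CPM in ADF Crtc2 muscle and 15.7, 18.7 and 15.9 CPM in ADF GFP muscle, without overlap, yet its log2 change of 0.72 ± 0.43 did not pass (edgeR's quasi-likelihood test, adjusted p = 0.549). In fed muscle it averaged 19.6 ± 2.62 CPM with Crtc2 and 23.9 ± 19.2 CPM with GFP. Nampt averaged 175 ± 29.3 CPM in ADF Crtc2 muscle and 146 ± 24.2 CPM in ADF GFP muscle, and 96.5 ± 23.1 CPM in fed Crtc2 muscle and 69.8 ± 25 CPM in fed GFP muscle, with overlap in both diets. Sirt5 averaged 23.7 ± 6.36 CPM in fed Crtc2 muscle and 12.4 ± 8.84 CPM in fed GFP muscle, a log2 change of 0.93 ± 0.48 that did not pass (adjusted p = 0.88, edgeR). The remaining 6 genes had log2 changes between -0.43 and 0.91 under ADF and between -1.27 and 0.44 in fed muscle, none past the threshold.

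Whether the diet response differed between vectors was tested as the interaction term, the Crtc2 response under ADF minus that in fed muscle. None of the 10 genes passed by edgeR, 2 (Nmnat1 and Nmrk1) were at an unadjusted p under 0.05, and 0 passed by DESeq2. Over all tested genes 0% passed by edgeR, with 1240 at an unadjusted p under 0.05 and 181 by DESeq2. Nmrk1 had the largest of the 10 values, 2.18 ± 0.96 on the log2 scale (adjusted p = 0.62), and for Nampt and Nmrk2 the terms were -0.21 ± 0.34 and 0.27 ± 0.48.

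**Figure D4:**
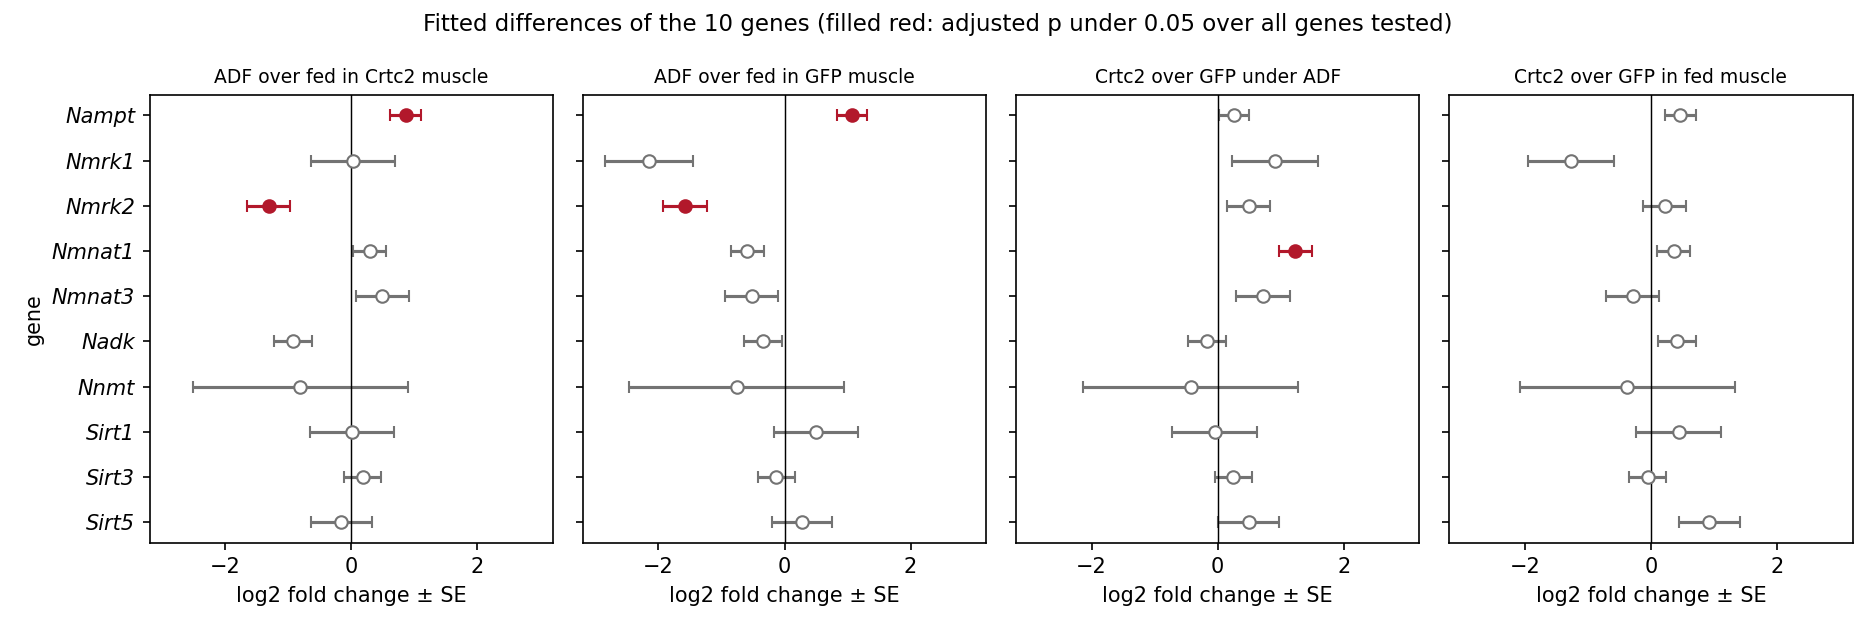
Log2 change of each of the 10 genes with its standard error in 4 comparisons, ADF over fed in GFP and Crtc2 muscle and Crtc2 over GFP under ADF and in fed muscle. Nampt lies right of 0 (1.07 and 0.86) and Nmrk2 left of it (-1.58 and -1.31) under ADF, and Nmnat1 lies at 1.23 for Crtc2 under ADF.

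Other genes of NAD metabolism were taken from a list of 31 by role, of which 30 are in the table and 24 passed the filter on low counts. Genes of synthesis from tryptophan were among those too low to be tested: Tdo2, Kmo, Kynu, Haao and Acmsd. In each ADF comparison 1 of the 24 was higher and 2 were lower, beside calls for 7.12% of all tested genes in GFP muscle and 11% in Crtc2 muscle. None was called for Crtc2 or the interaction by edgeR. The medians of the 24 log2 changes were -0.37 in GFP muscle and -0.35 in Crtc2 muscle, beside -0.01 and -0.13 over all tested genes.

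Nadk2, the mitochondrial NAD kinase, was higher under ADF, unlike cytosolic Nadk. It averaged 38.5 ± 1.57 CPM in ADF GFP muscle and 15.9 ± 6.37 CPM in fed GFP muscle (log2 change 1.27 ± 0.33, edgeR adjusted p = 0.0205). In Crtc2 muscle it averaged 46.8 ± 9.44 CPM under ADF and 12.1 ± 3.48 CPM when fed (log2 change 1.95 ± 0.34, edgeR adjusted p = 0.000531). The call in GFP muscle was lost without ADF GFP replicates 1 (0.0527), 2 (0.0666) or 3 (0.0672), without fed GFP replicates 1 (0.0581) or 2 (0.0921), and with library totals (0.0519), over a range of 0.00574 to 0.0921. Aox1, an oxidase that clears methylnicotinamide, the product of Nnmt, was lower under ADF. It averaged 21.2 ± 4.68 CPM in ADF GFP muscle and 75.5 ± 3.48 CPM in fed GFP muscle (log2 change -1.83 ± 0.28, edgeR adjusted p = 0.000194). With Crtc2 it averaged 25.5 ± 6.57 CPM under ADF and 75.9 ± 25.5 CPM when fed (log2 change -1.58 ± 0.28, edgeR adjusted p = 0.000538). It passed in all 18 alternatives run in either vector.

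Of the sirtuins outside the 10, 2 were called lower under ADF, each with 1 of the vectors. Sirt4, a mitochondrial sirtuin, averaged 3.45 ± 1.95 CPM in ADF GFP muscle and 19.7 ± 2.66 CPM in fed GFP muscle (log2 change -2.51 ± 0.51, edgeR adjusted p = 0.00311), and passed in all 18 alternatives. In Crtc2 muscle Sirt4 averaged 9.93 ± 2.56 CPM under ADF and 19.4 ± 3.59 CPM when fed, lower without overlap, as for 15.7% of all tested genes. Its log2 change there was -0.97 ± 0.48 and missed the threshold (edgeR adjusted p = 0.221). The difference between the vectors was itself not called (interaction 1.55 ± 0.68, edgeR adjusted p = 0.62). Sirt7, a nucleolar sirtuin, averaged 6.92 ± 2.62 CPM in ADF Crtc2 muscle and 24 ± 2.35 CPM in fed Crtc2 muscle (log2 change -1.79 ± 0.47, edgeR adjusted p = 0.0145). That call was lost without ADF Crtc2 replicates 2 (0.0584) or 3 (0.0727), over a range of 0.00111 to 0.0727. In GFP muscle its log2 change was -1.18 ± 0.46, with overlap (edgeR adjusted p = 0.144), and the interaction was -0.61 ± 0.64 (adjusted p = 0.896).

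The genes whose level followed each of the 3 most closely were sought by Pearson correlation of log2 CPM over the 12 libraries, among 9303 genes. For Nampt these were Ube3a (r = 0.972) and Slain2 (0.969), for Nmrk2 Zfp692 (0.963) and Ssbp1 (0.932), and for Nmnat1 Acyp2 (0.896) and Senp3 (0.884). These are descriptions over libraries that share the diet and vector groups. Among the 10 genes themselves the highest value was 0.71, between Sirt1 and Sirt5, and the lowest was -0.74, between Nmrk1 and Sirt1. Both rest in part on fed GFP replicate 1, where Sirt1 and Sirt5 had their lowest values and Nmrk1 its highest. Without that library, left out after the values were seen, they were 0.55 and -0.37 over 11 libraries, and the extremes were 0.81, between Sirt1 and Sirt3 (0.1 with all libraries), and -0.58, between Nampt and Nmrk2.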

How the data were processed

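Messenger RNA levels were read from 12 muscle libraries. The deposited values are raw counts of reads per Ensembl gene, whole numbers that the authors did not normalize. Per the submitters' processing notes, the tools were DESeq2 1.18.1, Subread 1.6.1 with featureCounts, HISAT2 2.0.5 and SAMtools 1.7, the builds GRCm38 and mm10, and the tools' roles, the annotation release and the strand setting are not given in the sources used here. Per the labels' protocols, TRIzol extracts were purified with RNeasy, and 2 stranded kits are named without assignment to libraries. No batch or date is given, and every column had a sample. Within groups no library duplicated another.

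The 16007 genes kept by filterByExpr entered edgeR 4.0.16 under R 4.3.3 (TMM scaling, robust quasi-likelihood fit, 4 group means, 5 contrasts), adjusted by Benjamini-Hochberg over all genes tested, threshold 0.05, after testing on simulated data. Errors of log2 changes are log2 change over the square root of F. CPM use TMM-scaled library sizes. TPM use exon lengths of GENCODE mouse release 21 on GRCm38. The smallest two-sided exact p for 3 against 3 libraries is 0.1. The floors for a count of 0 cover counting error only, while the errors and SDs include the spread between libraries. These floors take each count as 1 fragment and would be higher if fragments were counted more than once. DESeq2 1.42.0, other scalings, filters, a replicate block and leaving out each library were alternatives. The members and lists were chosen with earlier results of these data known. All 10 members are named, as are the other NAD genes past the threshold in any comparison and the 2 genes most alike each called member (mean of at least 5 CPM, named symbols).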

Additional observations from a re-analysis of the deposited data

How the results depend on the processing

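With scaling and filter as reported, 1140 genes passed for ADF over fed in GFP muscle, 1758 for ADF over fed in Crtc2 muscle, 116 for Crtc2 over GFP under ADF, and 0 each for Crtc2 over GFP in fed muscle and for the interaction. In that order DESeq2 called 1898, 2811, 692, 81 and 181 genes, and 3, 3, 1, 0 and 0 of the 10 members. Without the filter on low counts 1468, 2083, 385, 58 and 67 genes passed, and leaving out each library gave 677 to 1230, 1129 to 1940, 25 to 164, 0 to 18 and 0 to 3 genes. Leaving out each library gave 1 to 3, 0 to 3 and 0 to 1 members called in the first 3 comparisons and 0 in the others. In ADF over fed in Crtc2 muscle 3 members passed with RLE scaling and with a minimum mean of 10 CPM. With scaling by library totals 0 passed for Crtc2 over GFP under ADF. Of the genes called, 57.0, 57.4 and 10.3% were higher in the first 3 comparisons, against 44.4, 29.3 and 1.32% with library totals, 49.7, 45.0 and 24.1% by DESeq2, and 45.4, 49.8 and 15.7% with the 10 CPM minimum. Library totals moved the median of all genes to -0.11, -0.43, -0.22, 0 and -0.27. The causes of these shifts were not tested.

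Changes of sign occurred in log2 changes of members that passed in no setting there. For ADF over fed in Crtc2 muscle, library totals gave Nmrk1 -0.27, Nmnat1 -0.01, Sirt1 -0.3 and Sirt3 -0.11, and both RLE scaling and DESeq2 gave Sirt1 -0.03. Leaving out each library, ADF over fed in GFP muscle ranged for Nmnat3 from -0.87 to 0.37, Sirt1 0 to 0.89, Sirt3 -0.26 to 0.01 and Sirt5 -0.16 to 1.03. In Crtc2 muscle it ranged for Nmrk1 from -0.23 to 0.21, Sirt1 -0.19 to 0.16, Sirt3 -0.03 to 0.41 and Sirt5 -0.56 to 0.04. Crtc2 over GFP under ADF ranged for Nadk from -0.33 to 0.13, Nnmt -1.71 to 0.23 and Sirt1 -0.25 to 0.1. In fed muscle it ranged for Nmrk2 from -0.15 to 0.61, Nmnat3 -0.64 to 0.6, Nnmt -0.95 to 0.06, Sirt1 -0.06 to 0.83 and Sirt3 -0.28 to 0.08. The interaction ranged for Nmrk2 from -0.11 to 0.64, Nnmt -1.35 to 0.6 and Sirt1 -0.88 to 0.01.

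Libraries with the same replicate number correlated at -0.038 to 0.134 in their deviations from group means, 1 of 18 pairs above 0.1. The 36 pairs with different numbers correlated at -0.123 to 0.052. Most libraries, 8 of 12, correlated best with their own number. The highest values joined ADF GFP with fed Crtc2 libraries (0.087, 0.134 and 0.064), groups that differ in both diet and vector. The count to be met without pairing was not computed, so nothing is read from it. The values were small and the labels state no pairing, so the main fit did not use the numbers. The replicate block gave 1088, 1664, 106, 0 and 0 genes and an Nnmt interaction of 0.11. Nnmt, at 0 in 2 libraries and at 100 or more counts in others, had the widest errors of the 10 genes.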
